A study of Mus musculus with 2 samples.

Results

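The 37 genes described here are interferon response genes of the mouse, a list of interferon-induced genes and of factors that drive them. They were listed by symbol, with earlier results of these data known. Each symbol occurred once among the 31053 genes of the count tables. The levels come from single-cell RNA sequencing (10x Genomics Chromium, polyadenylated RNA) of skin from male and female C57Bl6 mice of 8 weeks, with no other genotype named. One library was labelled sitagliptin, from skin injected intradermally with 100 ng of this inhibitor of the peptidase DPP4 in 100 µl of phosphate-buffered saline (PBS), and the other was labelled PBS, from skin injected with the saline alone. The series title concerns DPP4 inhibition and the activation of hair follicles. A time of 48 h is tied to the processing of the skin, in wording that leaves its starting point unclear, and how many animals went into a library is not stated by the labels.

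There was 1 library per treatment, so there is no replicate check and no test between treatments. The 95% intervals of levels and ratios cover the counting of UMIs alone, those of shares of cells take each cell as 1 draw, and none covers a spread between animals. Each library's files carry a letter that is the initial of the other treatment, so the text goes by the labels, and an exchange of the libraries would turn every direction round. Of 22085 barcodes of the sitagliptin-labelled library, with 95047000 UMIs in all (molecular identifiers, each for 1 captured RNA molecule), 18380 barcodes with a median of 2197 UMIs were retained. Of 10456 barcodes of the PBS-labelled library, with 70729930 UMIs in all, 5932 barcodes with a median of 6902.5 UMIs were retained. More than 10% of UMIs were mitochondrial in 16.8% of barcodes of the sitagliptin library and in 39.9% of those of the PBS library, and these were left out. The libraries shared 75 barcodes.

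Interferons are secreted signals that cells release on sensing viral nucleic acid or microbial products. Type I and type III interferons act through JAK kinases on a complex that includes STAT2 and IRF9 and binds interferon-stimulated response elements. The induced genes encode nucleic acid sensors, proteins that block viral entry or replication, GTPases that act against intracellular microbes, and the machinery that loads peptides on MHC class I molecules. In skin, keratinocytes keep part of this programme switched on at rest, and macrophages respond strongly to interferon.

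Cells were clustered without the 37 genes and named from marker lists. The 4 keratinocyte classes compared between libraries were basal-like, with 1328 sitagliptin and 1179 PBS cells, suprabasal-like (5792 and 1219), upper-follicle-like (1634 and 841), and outer-root-sheath-or-bulge-like (1873 and 277), called outer sheath cells. All 7 upper follicle, all 9 suprabasal and all 9 outer sheath markers were highest in their own class in both libraries, against 5 of 8 basal markers in the sitagliptin and 4 of 8 in the PBS library. Different clusters held most suprabasal cells: the largest held 2756 sitagliptin and 34 PBS cells, and another, led by the stress keratin Krt16, held 1005 sitagliptin and 743 PBS cells. A further 6164 sitagliptin and 376 PBS keratinocytes were left without a compartment. There were 1249 sitagliptin and 77 PBS sebocyte-like cells, whose main cluster came almost wholly from 1 library. Neither group is among the 4 classes, but their clusters with at least 50 cells from each library enter the counts over clusters. Immune and dermal classes are described in the PBS library, which held 1045 macrophage- or monocyte-like, 498 fibroblast-like, 99 T- or innate-lymphoid-like, 98 dendritic- or Langerhans-like and 57 lymphatic-endothelial-like cells. The sitagliptin library held 42 macrophage- or monocyte-like and 60 fibroblast-like cells.

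Promoter windows of 31 of the 37 members were found in the RefSeq table of GRCm38.p6, each running from 250 bases before a start listed there to 50 after it. Such a start can differ from the start of the gene in mm10. The letters GAAANNGAA, the core of an interferon-stimulated response element, were searched on both strands, so that a match on the other strand appears as its reverse complement. They occurred in 17 of the 31 members (54.8%) and in 2638 of 27025 genes with a window (9.76%). The letters TTCNNNGAA, a second motif searched on both strands, occurred in 9 of 31 members (29.0%) and in 9.55% of genes, and a match of one motif can share bases with a match of the other. The 6 members below are those with a GAAANNGAA match that had the highest keratinocyte level, and are shown because the letters by which such genes are recognised can be read in them. Each stretch ends 30 bases into the transcript and is written 5′ to 3′ on the gene's own strand, with GAAANNGAA matches of either strand in capitals. The stretches are chr7:141010715-141010994 (minus strand) for Ifitm3, chr7:140955932-140956211 (minus) for Ifitm2, chr11:88999153-88999432 (plus) for Trim25, chr2:62646226-62646505 (minus) for Ifih1, chr10:128270248-128270527 (plus) for Stat2 and chr8:71537443-71537722 (minus) for Bst2.
Ifitm3: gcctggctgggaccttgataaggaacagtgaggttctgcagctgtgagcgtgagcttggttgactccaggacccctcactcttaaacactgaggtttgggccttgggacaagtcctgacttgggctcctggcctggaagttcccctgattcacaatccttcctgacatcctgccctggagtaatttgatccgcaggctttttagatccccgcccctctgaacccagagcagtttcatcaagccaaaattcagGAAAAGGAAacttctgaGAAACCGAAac
Ifitm2: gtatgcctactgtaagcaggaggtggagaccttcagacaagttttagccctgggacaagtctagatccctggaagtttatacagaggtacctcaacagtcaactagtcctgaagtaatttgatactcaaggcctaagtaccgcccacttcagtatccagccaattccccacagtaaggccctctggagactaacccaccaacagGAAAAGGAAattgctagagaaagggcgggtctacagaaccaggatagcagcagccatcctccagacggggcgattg
Trim25: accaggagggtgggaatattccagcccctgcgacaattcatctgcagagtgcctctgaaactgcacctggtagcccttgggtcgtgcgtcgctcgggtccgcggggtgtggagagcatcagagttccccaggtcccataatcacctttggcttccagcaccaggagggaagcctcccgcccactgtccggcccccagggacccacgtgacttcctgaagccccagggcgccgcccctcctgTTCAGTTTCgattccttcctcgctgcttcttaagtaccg
Ifih1: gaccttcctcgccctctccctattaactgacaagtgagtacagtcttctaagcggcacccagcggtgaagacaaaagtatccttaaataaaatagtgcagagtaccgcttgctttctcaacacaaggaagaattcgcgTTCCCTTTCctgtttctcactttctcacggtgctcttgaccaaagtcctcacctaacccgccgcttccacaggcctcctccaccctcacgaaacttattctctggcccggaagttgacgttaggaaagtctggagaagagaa
Stat2: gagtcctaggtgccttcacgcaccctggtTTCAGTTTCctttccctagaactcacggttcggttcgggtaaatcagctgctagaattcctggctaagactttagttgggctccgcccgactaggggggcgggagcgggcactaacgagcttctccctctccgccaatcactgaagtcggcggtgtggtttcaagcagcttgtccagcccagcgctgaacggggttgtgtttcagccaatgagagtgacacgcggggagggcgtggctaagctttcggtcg
Bst2: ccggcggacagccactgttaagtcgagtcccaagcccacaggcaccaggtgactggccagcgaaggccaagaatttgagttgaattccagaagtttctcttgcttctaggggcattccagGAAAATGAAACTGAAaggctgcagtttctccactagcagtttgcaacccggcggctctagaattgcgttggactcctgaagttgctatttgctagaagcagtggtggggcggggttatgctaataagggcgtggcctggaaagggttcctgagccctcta

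Both Ifitm3 matches lie just behind the start of transcription, and the Ifitm2 match begins 46 bases before it. In Bst2 the matches overlap and begin 130 and 124 bases before the start, and a second Ifih1 match begins behind the printed stretch. Isg15 held 3 matches, 78, 72 and 66 bases before its start. Tap1, Psmb8 and Psmb9, which encode parts of the antigen processing machinery, held none. Their genes lie side by side in the MHC region of chromosome 17, where Tap1 (chr17:34187553-34197225, plus strand, mm10) and Psmb9 (chr17:34181987-34187764, minus strand) start next to each other in opposite directions, so that their windows overlap. The Psmb8 window (chr17:34197945-34198244) lies wholly behind the start of that gene at chr17:34197721 (plus strand, mm10), so no base before that start was searched. The Irf9 windows, which held no match, likewise begin behind the start of the gene. A match is a description of these letters and not a measured binding site.

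Keratinocytes held a small part of the list at high level and most of it near 0. Over the 4 classes together, the members summed to 1129 CPM, the UMIs of a gene scaled to a common total per class, in the sitagliptin and 1478 CPM in the PBS library. UMIs count molecules from transcript ends, so no correction for gene length was made. Ifitm3 and Ifitm2, membrane proteins that stop viruses from fusing with the cell, led the order with 467 and 301 CPM in the sitagliptin library and 669 and 335 CPM in the PBS library. Tap1, a subunit of the peptide transporter, followed with 100.03 CPM in the sitagliptin and 107 CPM in the PBS library. Together with the immunoproteasome subunits Psmb8 and Psmb9, these 5 genes made up 85.4% (85.1 to 85.6, exact Clopper-Pearson interval) of member UMIs in the sitagliptin library and 83.9% (83.6 to 84.2) in the PBS library.

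Psmb8 reached 54.4 CPM in sitagliptin and 78.1 CPM in PBS keratinocytes, Psmb9 41.4 and 51.0 CPM, and Ifi27l2a, a small mitochondrial membrane protein, 22.6 and 59.4 CPM. The ubiquitin ligase Trim25 stood at 27.7 CPM in sitagliptin and 29.8 CPM in PBS cells, and Irf9 at 22.0 and 20.2 CPM. Ifi35, a partner of the cytosolic protein Nmi, had 17.6 CPM in sitagliptin and 17.9 CPM in PBS cells, and the RNA sensor Ifih1 (MDA5) had 14.2 and 13.1 CPM. In the order of PBS levels, the intervals of Ifi27l2a and Psmb9 did not overlap, those of Irf9 and Ifi35 did, and those of Ifih1 and its follower Stat2 (10.2 CPM in sitagliptin and 12.4 CPM in PBS cells) did as well. At the other end, Ifit3 had 0.119 CPM in sitagliptin and 0.522 CPM in PBS cells, and Ifitm1 0.104 and 0.224 CPM. Under 1 CPM stood 12 members in the sitagliptin and 7 in the PBS library.

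**Figure D1:**
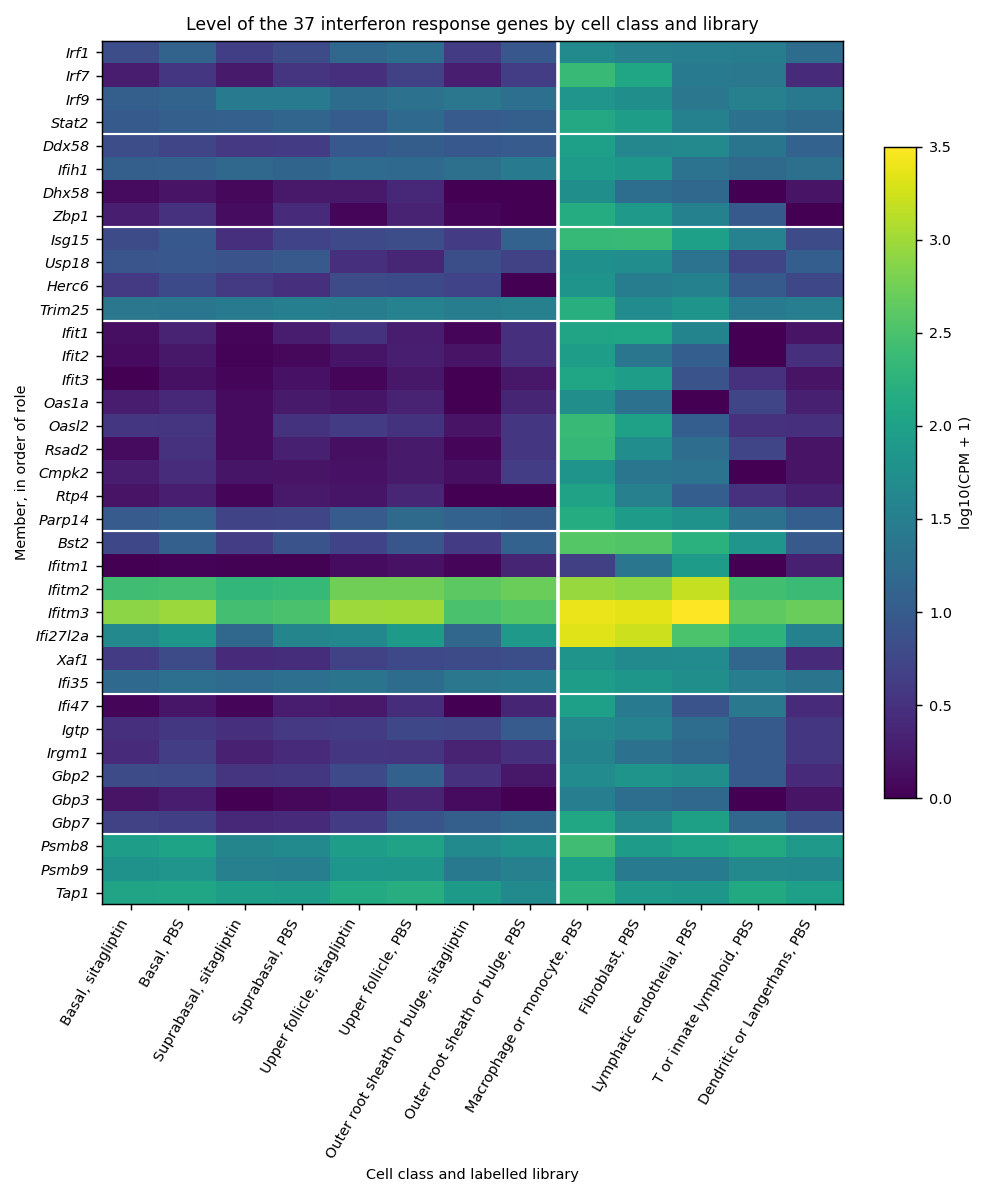
Level of the 37 members as log10(CPM + 1), by cell class (columns) and member (rows, in order of role, white lines between roles). The white vertical line parts 4 keratinocyte classes, each with its sitagliptin and PBS library, from 5 immune and dermal classes of the PBS library; Ifitm3, Ifitm2, Tap1, Psmb8 and Psmb9 are bright in keratinocytes, and nearly all members are bright in macrophages and fibroblasts.

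The keratinocyte classes differed in the sum. Upper follicle cells had the highest summed member level, 2023 CPM in the sitagliptin library (1998 to 2048) and 2159 CPM in the PBS library (2131 to 2187), and suprabasal cells the lowest, 797 CPM (788 to 806) and 889 CPM (875 to 904). Basal cells stood at 1484 CPM in the sitagliptin (1456 to 1512) and 1751 CPM in the PBS library (1727 to 1776), and outer sheath cells at 1058 CPM (1034 to 1082) and 1329 CPM (1271 to 1388). Ifitm3 was at 958 CPM in sitagliptin and 989 CPM in PBS upper follicle cells, against 284 and 315 CPM in suprabasal cells. In outer sheath cells Ifitm2 was above Ifitm3, with 414 against 311 CPM in the sitagliptin and 523 against 374 CPM in the PBS library. Irf9, the DNA-binding partner of Stat2, ran the other way from Ifitm3, with 10.5 CPM in sitagliptin and 11.9 CPM in PBS basal cells and 25.8 and 26.9 CPM in suprabasal cells.

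In macrophage- or monocyte-like cells of the PBS library the members summed to 9477 CPM (9399 to 9555) and 31 of 37 reached 50 CPM, whereas 6 did in PBS keratinocytes. Ifitm3 led with 2528 CPM, followed by Ifi27l2a with 2131, Ifitm2 with 911, the virus tether Bst2 with 377 and Psmb8 with 265 CPM. The 5 genes that dominated keratinocytes supplied 42.0% (41.6 to 42.4) of member UMIs there. All 37 members were higher in macrophages than in PBS keratinocytes, by 1.64-fold for Tap1, 17.5-fold at the median and 220-fold for Ifit3, and by over 10-fold in 25 members. These macrophage sums also held keratin RNA, with Krt14 at 2441 CPM and Krt10 at 2181 CPM, so they are not free of other cells' transcripts.

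The macrophages formed 2 clusters. In the 461 cells led by Ccl8, C1qa and Lyve1 the members summed to 12736 CPM (12602 to 12872), and in the 584 cells led by Lyz2, Lyz1 and Ccr2 they summed to 6850 CPM (6761 to 6939). Ifit3, which binds foreign RNA together with Ifit1, stood at 215 CPM in the C1qa cluster and 33.3 CPM in the Ccr2 cluster. Rsad2, the antiviral enzyme viperin, stood at 354 CPM in the C1qa cluster and 96.7 CPM in the Ccr2 cluster. Psmb8 was close in both, at 246 CPM (227 to 265) in the C1qa cluster and 281 CPM (263 to 300) in the Ccr2 cluster.

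Fibroblast-like cells of the PBS library summed to 7060 CPM (6966 to 7155), led by Ifitm3 with 2268, Ifi27l2a with 1726, Ifitm2 with 804, Bst2 with 353 and Isg15 with 225 CPM. Lymphatic-endothelial-like cells were close to them in the sum, at 7030 CPM (6731 to 7339), but with 3760 CPM of Ifitm3, 1572 CPM of Ifitm2 and 325 CPM of Ifi27l2a. Ifitm1, near 0 in keratinocytes and at 3.66 CPM in macrophages, reached 81.2 CPM there. T- or innate-lymphoid-like cells summed to 1619 CPM (1505 to 1740) and held Krt14 at 6145 CPM. Dendritic- or Langerhans-like cells, with the Langerhans marker Cd207 at 277 CPM, summed to 1186 CPM (1138 to 1236) and held Krt10 at 10197 CPM.

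Between treatments, the members were mostly lower in sitagliptin than in PBS keratinocytes, and mostly by less than 1.5-fold. A member was compared in a class where it had at least 20 UMIs over both libraries, and called lower or higher where its ratio was at least 1.5-fold from 1 after 1 CPM was added to both levels, which understates the ratio of low genes. In basal cells 29 members were measured, of which 10 were lower and 0 higher, against 3.14% of all 11567 measured genes lower and 3.28% higher. The suprabasal count was 9 lower and 0 higher of 32, against 1.92% and 3.39% of 12978 genes. In upper follicle cells 8 of 29 were lower and 1 higher, against 1.82% and 2.36% of 12138 genes. In outer sheath cells 5 of 21 were lower and 2 higher, against 5.28% and 9.14% of 11354 genes. Outside the 4 classes, sebocyte-like cells went the other way. There 2 of 14 were lower and 5 higher, against 15.4% and 18.3% of 9955 genes, with a median log2 ratio of 0.26. In keratinocytes without a compartment 6 of 24 were lower and 0 higher, against 8.26% and 9.66% of 11995 genes, with a median of -0.16.

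The median member's log2 ratio, sitagliptin over PBS, was -0.29 for basal cells, -0.21 for suprabasal, -0.23 for upper follicle and -0.26 for outer sheath cells, and over all measured genes it was 0.01, 0.04, -0.01 and 0.01. The share of measured members called lower was 34.5%, 28.1%, 27.6% and 23.8% in the same order. The summed level had a ratio of 0.848 in basal cells (0.828 to 0.868), 0.896 in suprabasal (0.879 to 0.914), 0.937 in upper follicle (0.920 to 0.954) and 0.796 in outer sheath cells (0.758 to 0.836). Of the 37 members, 33 were measured in at least 1 class and 21 in all 4, and Ifit2, Ifit3, Ifitm1 and Gbp3 in none. Lower in at least 1 class were 19 members and higher in at least 1 were 3, against 7.77% and 12.2% of the 13317 genes measured in at least 1 class. With 1 CPM added, 13 stayed within 1.5-fold in every class in which they were measured, low genes with wider ratios of CPM among them. All of these counts depend on carried-over RNA and on depth, whose values are given further on.

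**Figure D2:**
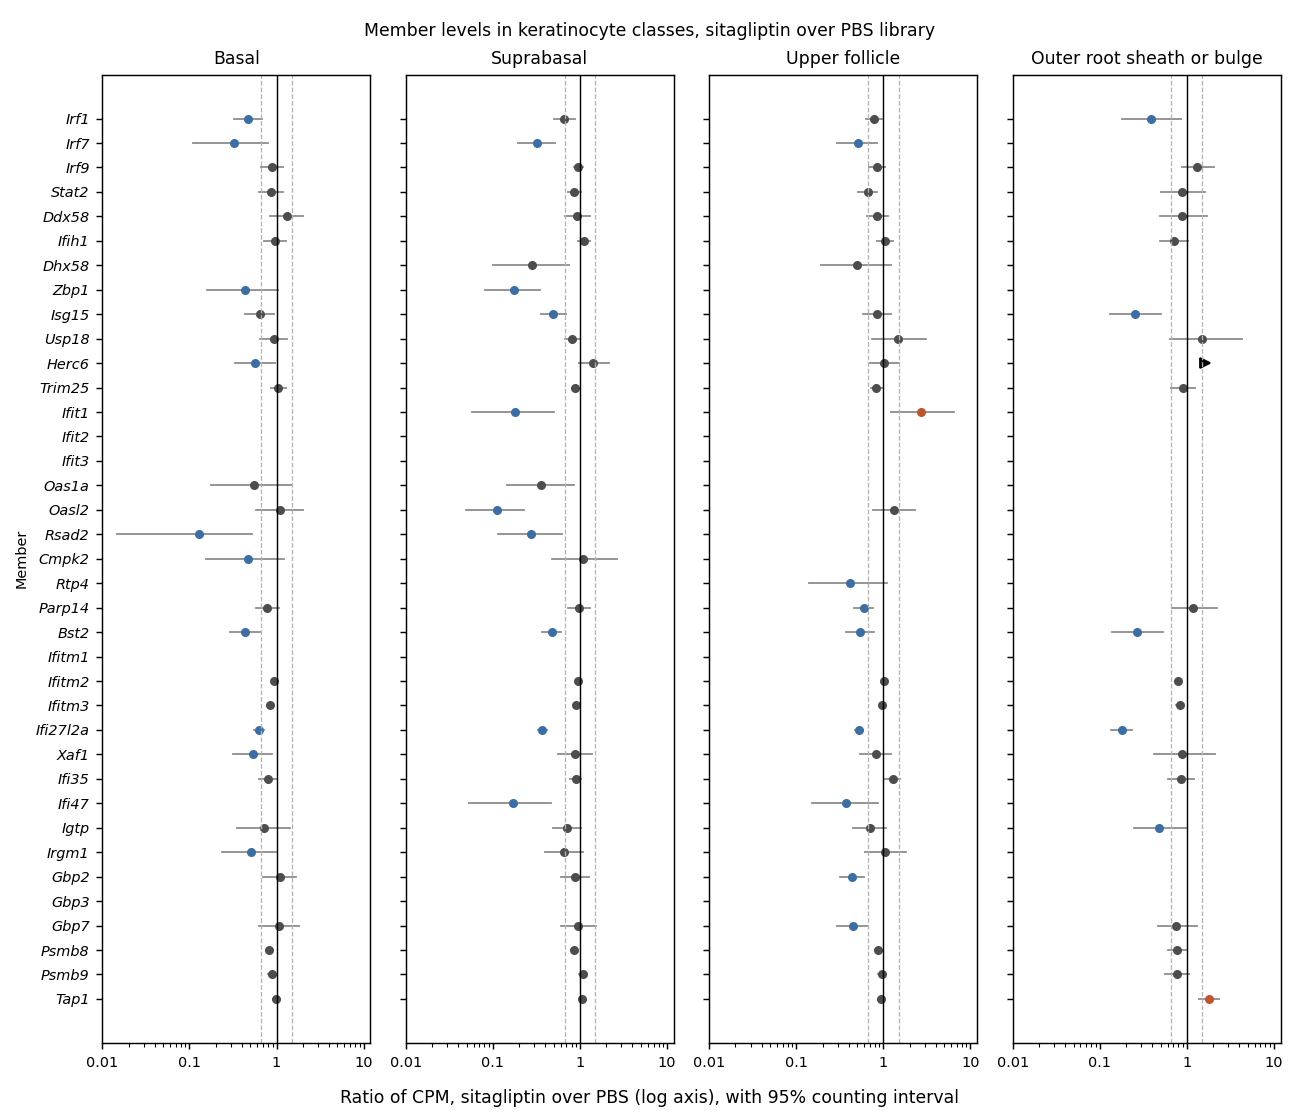
Ratio of CPM, sitagliptin over PBS library, on a log axis, for each member (rows) in 4 keratinocyte classes (panels), where at least 20 UMIs were counted; lines are 95% counting intervals, the dashed lines stand at 1.5-fold, and blue and orange points are members called lower and higher after 1 CPM was added to both levels. The arrow marks Herc6, at 0 UMIs in PBS outer sheath cells, drawn at the lower bound of its interval; Ifi27l2a and Bst2 are blue in all 4 panels.

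Among membrane and mitochondrial proteins, Ifi27l2a and Bst2 were called lower in all 4 classes. Ifi27l2a (chr12:103442167-103443680, minus strand, mm10) stood at 43.9 CPM in sitagliptin and 69.8 CPM in PBS basal cells, at 14.3 and 38.5 CPM in suprabasal cells, at 41.9 and 79.7 CPM in upper follicle cells, and at 13.3 and 74.7 CPM in outer sheath cells. The ratios were 0.630 (0.552 to 0.718), 0.370 (0.330 to 0.415), 0.526 (0.471 to 0.587) and 0.178 (0.135 to 0.236). In the PBS outer sheath cells, 1 cell held 38 of the 114 Ifi27l2a UMIs, and without the top cell of each library the levels were 12.6 CPM in sitagliptin and 50.02 CPM in PBS cells. The gene encodes a small membrane protein induced by type I interferon, and 4.81% of the 31-base words at its 3′ end also occur in its neighbour Ifi27l2b.

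In each of the 14 keratinocyte clusters with at least 50 cells from each library, 2 of them without a compartment and 1 of sebocytes, Ifi27l2a was lower in the sitagliptin library, and in 13 the interval of the ratio lay below 1. All clusters are parts of the same 2 libraries and so are not repeats of the comparison. Carried-over RNA was not subtracted from cluster levels. The widest gap with UMIs in both libraries was in an outer sheath cluster with 15.3 CPM in its 207 sitagliptin and 200.5 CPM in its 63 PBS cells. Whether this cluster holds the PBS outer sheath cell with 38 Ifi27l2a UMIs was not checked, and its level was not recounted without a top cell. The narrowest gap was in an upper follicle cluster with 39.5 CPM in 1010 sitagliptin and 56.1 CPM in 517 PBS cells.

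Bst2 (chr8:71534255-71537456, minus strand), which tethers budding virus to the cell surface, stood at 4.79 CPM in sitagliptin and 10.9 CPM in PBS basal cells, at 3.26 and 6.91 CPM in suprabasal, at 4.12 and 7.56 CPM in upper follicle, and at 3.16 and 11.8 CPM in outer sheath cells. With carried-over immune and dermal RNA subtracted, 4.63 CPM in sitagliptin and 7.98 CPM in PBS basal cells, 2.88 and 4.46 CPM in suprabasal, 3.90 and 4.96 CPM in upper follicle, and 2.78 and 7.14 CPM in outer sheath cells were left, and the suprabasal and upper follicle differences were no longer 1.5-fold. Before subtraction the ratios were 0.439 (0.292 to 0.643), 0.472 (0.365 to 0.610), 0.545 (0.377 to 0.783) and 0.268 (0.138 to 0.526). It was measured in 9 of the 14 clusters and lower in the sitagliptin library in all 9, with the interval below 1 in 5. The abundant Ifitm3 was within 1.5-fold in every class, with ratios of 0.831 (0.805 to 0.858), 0.900 (0.871 to 0.930), 0.969 (0.943 to 0.995) and 0.832 (0.759 to 0.914).

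Ifitm2 ratios lay between 0.792 in outer sheath and 1.004 in upper follicle cells. At the 3′ ends of Ifitm2 and Ifitm3, 32.6% and 9.63% of 31-base words recur in predicted or pseudogene-like copies, so their counts are uncertain to that extent. Xaf1, which counters an inhibitor of apoptosis, was called lower in basal cells alone, with 3.01 CPM in sitagliptin and 5.55 CPM in PBS cells. Ifi35 was within 1.5-fold in all 4 classes, with 21.1 CPM in sitagliptin and 16.5 CPM in PBS upper follicle cells in the one class where its ratio exceeded 1 (1.28, 1.05 to 1.56).

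Among the 4 transcription factors, Irf7 and Irf1 were called lower and Irf9 and Stat2 in no class. Irf7 (chr7:141262706-141266481, minus strand), which amplifies the type I interferon response, was called lower in the 3 classes where it was measured. It had 0.821 CPM in sitagliptin and 2.55 CPM in PBS basal cells, 0.771 and 2.42 CPM in suprabasal cells, and 1.98 and 3.92 CPM in upper follicle cells. These levels rest on 6 against 29, 31 against 41 and 25 against 41 UMIs. In none of the 3 classes was Irf7 past 1.5-fold once carried-over immune RNA was subtracted, which would supply, with dermal RNA, 63.7%, 56.7% and 36.4% of its PBS level. Cells without an immune-defining UMI, described further on, kept a gap, on few UMIs. Their Irf7 level was 0.845 CPM in sitagliptin and 2.35 CPM in PBS basal cells, 0.699 and 2.07 CPM in suprabasal, and 2.10 and 5.37 CPM in upper follicle cells. Irf1, the regulator closest to interferon gamma, had 5.61 CPM in sitagliptin and 11.9 CPM in PBS basal cells (ratio 0.472, 0.324 to 0.674), and 3.02 and 7.86 CPM in outer sheath cells (0.384, 0.182 to 0.851). In upper follicle cells it stood at 13.6 CPM in the sitagliptin and 17.3 CPM in the PBS library, within 1.5-fold.

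Irf9 ratios lay between 0.845 and 1.31, and every interval included 1. Stat2 had 9.59 CPM in sitagliptin and 14.6 CPM in PBS upper follicle cells, a log2 ratio of -0.55 just inside the 1.5-fold limit, and its other ratios lay between 0.858 and 0.877.

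The nucleic acid sensors Ifih1 and Ddx58 (RIG-I) were within 1.5-fold in all 4 classes. Ddx58 had 5.75 CPM in sitagliptin and 4.40 CPM in PBS basal cells, 2.86 and 3.07 CPM in suprabasal, 8.33 and 9.76 CPM in upper follicle, and 8.09 and 9.17 CPM in outer sheath cells. Every Ddx58 and Ifih1 interval included 1. Zbp1, which senses Z-form nucleic acid and can trigger necroptosis, was called lower in basal cells (0.958 CPM in sitagliptin and 2.20 CPM in PBS) and in suprabasal cells (0.299 and 1.71 CPM), the basal call being lost on subtraction of immune RNA. Dhx58 (LGP2) did not exceed 1.44 CPM in any class and was called in none. In suprabasal cells it had 0.199 CPM in sitagliptin and 0.709 CPM in PBS cells (8 against 12 UMIs), a gap that the added 1 CPM brings within the limit. The interval of its ratio lay below 1 in 1 class.

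In the ISG15 system, Isg15, the ubiquitin-like modifier, had 2.04 CPM in sitagliptin and 4.14 CPM in PBS suprabasal cells (ratio 0.493, 0.354 to 0.689). This call was lost under 7 of 19 alternatives, among them the subtraction of immune RNA, both other clustering resolutions and equal weights for clusters, with a log2 ratio of -0.38 at the smallest. In outer sheath cells it had 3.02 CPM in sitagliptin and 11.8 CPM in PBS cells (0.256, 0.131 to 0.506). In basal cells it stood at 5.34 CPM in the sitagliptin and 8.28 CPM in the PBS library, a log2 ratio of -0.55 just inside the limit, and in upper follicle cells at 4.84 and 5.74 CPM. Usp18, the protease that removes Isg15, was within 1.5-fold on this scale in all 4 classes, and so was Trim25, with ratios between 0.831 and 1.05.

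Herc6, the main Isg15 ligase of the mouse, differed in direction between classes. It had 2.87 CPM in sitagliptin and 5.02 CPM in PBS basal cells, and 30 UMIs (4.12 CPM) in sitagliptin against 0 in PBS outer sheath cells. The limit that a count of 0 allows there is 1.97 CPM (3 UMIs in that class and library). The sitagliptin level was 2.09-fold above this limit, with the counting error of its 30 UMIs left aside. At its 3′ end 31.7% of words recur in the predicted gene Gm45193, so its counts are uncertain. The share of such recurring words was 15.2% for Isg15 and, among the GTPases, 17.2% for Irgm1.

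The IFIT, OAS and other antiviral effectors had a summed level of 14.9 CPM in sitagliptin and 22.7 CPM in PBS basal cells, 6.07 and 11.05 CPM in suprabasal, 16.97 and 23.9 CPM in upper follicle, and 13.4 and 24.2 CPM in outer sheath cells. The ratios were 0.657, 0.549, 0.709 and 0.555, but carried-over immune and dermal RNA, described further on, would supply 35.3%, 61.3%, 29.4% and 51.9% of the PBS sums. With it subtracted the ratios were 0.987, 1.19, 0.966 and 1.09. In outer sheath cells 1 of the 9 genes, Parp14, had the 20 UMIs needed for a comparison. Rsad2 was called lower in basal cells (2 against 24 UMIs, 0.274 CPM in sitagliptin and 2.11 CPM in PBS) and in suprabasal cells (11 against 17 UMIs, 0.274 and 1.004 CPM). Cmpk2, a nucleotide kinase of mitochondria, was called lower in basal cells, with 0.821 CPM in sitagliptin and 1.76 CPM in PBS cells, a call kept under 8 of 16 alternatives and lost on subtraction of immune RNA. Oasl2, a member of the oligoadenylate synthetase family, had 0.249 CPM in sitagliptin and 2.24 CPM in PBS suprabasal cells (ratio 0.111, 0.0492 to 0.227). In basal and upper follicle cells Oasl2 was within 1.5-fold, with ratios of 1.09 and 1.31.

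Ifit1 went both ways, at 0.149 CPM in sitagliptin and 0.827 CPM in PBS suprabasal cells, and at 2.30 and 0.862 CPM in upper follicle cells. The 29 UMIs of sitagliptin upper follicle cells sat in 5 cells, and a pair of these held 14 and 12 of them, together with 19 and 32 of the 37 members and no UMI of an immune-defining gene. Without the 2 cells with the most members in each class and library, no member was called higher in upper follicle cells. Parp14, an ADP-ribosyltransferase, was called lower in upper follicle cells (8.96 CPM in sitagliptin and 15.1 CPM in PBS, ratio 0.592, 0.461 to 0.759), as was Rtp4, a receptor chaperone, with 0.555 and 1.34 CPM. The Rtp4 levels rest on 7 against 14 UMIs, and the interval of its ratio includes 1. Its call was kept under 9 of 14 alternatives and lost on subtraction of immune RNA. Oas1a was called in no class, and 47.8% of the words at its 3′ end recur in Oas1g. In suprabasal cells it had 0.274 CPM in sitagliptin and 0.768 CPM in PBS cells (11 against 13 UMIs), within the limit only with 1 CPM added. The interval of its ratio lay below 1 in 1 class.

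The interferon-induced GTPases were low in all keratinocytes, and 5 of the 6 were called lower in 1 class or more (not Gbp3, which was measured in none), with 1, 1, 3 and 1 of them in the single classes. In upper follicle cells their summed level was 14.99 CPM in the sitagliptin and 28.7 CPM in the PBS library, a ratio of 0.522 and the lowest of the 7 roles in that class. There Gbp2 had 4.92 CPM in sitagliptin and 11.3 CPM in PBS cells (ratio 0.435, 0.315 to 0.597), Gbp7 had 3.17 and 7.18 CPM (0.442, 0.293 to 0.657), and Ifi47 had 0.714 and 1.91 CPM. A single PBS cell held 26 of the 118 Gbp2 UMIs. Without the top cell of each library Gbp2 stood at 4.05 CPM in sitagliptin and 8.84 CPM in PBS cells. The Gbp2 call was lost when CPM were averaged over cells. Guanylate-binding proteins such as Gbp2 and Gbp7 attack the vacuoles of intracellular microbes. In basal cells both were within 1.5-fold, with ratios of 1.08 each. Ifi47 was also lower in suprabasal cells (0.149 CPM in sitagliptin and 0.886 CPM in PBS), Irgm1, a regulator of the other GTPases, in basal cells (1.64 and 3.26 CPM), and Igtp in outer sheath cells (4.39 and 9.17 CPM). Both Ifi47 calls were lost on subtraction of immune RNA. They rest on 6 against 15 UMIs in suprabasal and 9 against 20 UMIs in upper follicle cells.

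Antigen processing genes stood at a higher level than the GTPases, and their summed ratio was nearer 1 in each class. In basal cells this did not hold with carried-over RNA subtracted, where the ratios were 0.919 for antigen processing and 1.01 for the GTPases. The summed level of Psmb8, Psmb9 and Tap1 had a ratio of 0.907 in basal (0.857 to 0.961), 1.01 in suprabasal (0.963 to 1.05), 0.918 in upper follicle (0.876 to 0.962) and 1.10 in outer sheath cells (0.945 to 1.28). Tap1 was called higher in outer sheath cells, with 79.3 CPM in sitagliptin and 44.5 CPM in PBS cells (1.78, 1.38 to 2.32), and had ratios of 0.993, 1.06 and 0.927 in the other classes. Over the 14 clusters it was below 1 in 7, with an interval below 1 in 0 and above 1 in 3. Psmb8 ratios lay between 0.769 and 0.867, with the interval below 1 in all 4 classes. Psmb9 ratios lay between 0.762 and 1.07. At the Tap1 3′ end 8.06% of words recur in Tap2.

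RNA of immune cells was present in keratinocyte barcodes and differed between the libraries. The 13 immune-defining genes, among them C1qa, Lyz2, Mrc1 and Ptprc, summed to 5.34 CPM in sitagliptin and 112 CPM in PBS basal cells, 12.9 and 96.4 CPM in suprabasal, 9.36 and 97.5 CPM in upper follicle, and 7.27 and 175 CPM in outer sheath cells. Relative to their level in PBS macrophages these sums are 0.0308% in sitagliptin and 0.647% in PBS basal cells, 0.0742% and 0.555% in suprabasal, 0.0539% and 0.562% in upper follicle, and 0.0419% and 1.01% in outer sheath cells. In PBS basal cells the single genes lay between 0.412% for Laptm5 and 0.986% for Pf4. Carried over in these proportions, macrophage RNA would supply 0.196% of the summed member level in sitagliptin and 3.502% in PBS basal cells, 0.883% and 5.92% in suprabasal, 0.253% and 2.47% in upper follicle, and 0.375% and 7.19% in outer sheath cells. With fibroblast RNA added, measured by 6 collagen and matrix genes, the shares in PBS cells came to 4.08%, 6.73%, 2.91% and 8.47%.

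By member the share was uneven, since the members high in macrophages and low in keratinocytes take most of it. In PBS basal cells carried-over immune and dermal RNA would supply 9.01% of a member's level at the median and over 50% for 3 of 29 members, among them 68.2% of Rsad2 and 63.7% of Irf7. In PBS suprabasal cells the median was 18.5%, and 7 of 32 members were over 50%, with 122% of Rsad2, 87.8% of Ifit1 and 60.4% of Oasl2. The median was 6.21% in upper follicle cells, with 2 members over 50%, and 7.55% in outer sheath cells, with 0. By contrast the share was 2.87% for Irf1 in basal cells, 3.11% for Gbp2 in upper follicle cells and 0.736% for Tap1 there.

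Set against the differences between libraries, the carried-over RNA would supply over 50% of the gap for 4 of the 10 lower members in basal cells, 8 of 9 in suprabasal, 3 of 8 in upper follicle and 0 of 5 in outer sheath cells. With both contributions subtracted, 4, 3, 4 and 5 of these members were still at least 1.5-fold lower, and the share of all genes lower after subtraction was not computed. The members still lower were Irf1, Bst2, Xaf1 and Irgm1 in basal cells, Zbp1, Oasl2 and Ifi27l2a in suprabasal, Parp14, Ifi27l2a, Gbp2 and Gbp7 in upper follicle, and Irf1, Isg15, Bst2, Ifi27l2a and Igtp in outer sheath cells. For Ifi27l2a the carried-over RNA would supply 23.3%, 35.3%, 17.97% and 34.3% of the PBS level. The levels left were 43.1 CPM in sitagliptin and 53.5 CPM in PBS basal cells, 12.2 and 24.9 CPM in suprabasal, 40.7 and 65.4 CPM in upper follicle, and 11.4 and 49.0 CPM in outer sheath cells, so that the basal difference was no longer 1.5-fold. For Irf1 in basal cells, 5.59 CPM in sitagliptin and 11.5 CPM in PBS cells were left, and for Gbp2 in upper follicle cells 4.89 and 10.9 CPM. The estimate takes the source to be macrophages and fibroblasts of the PBS library as measured, keratin RNA included.

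**Figure D3:**
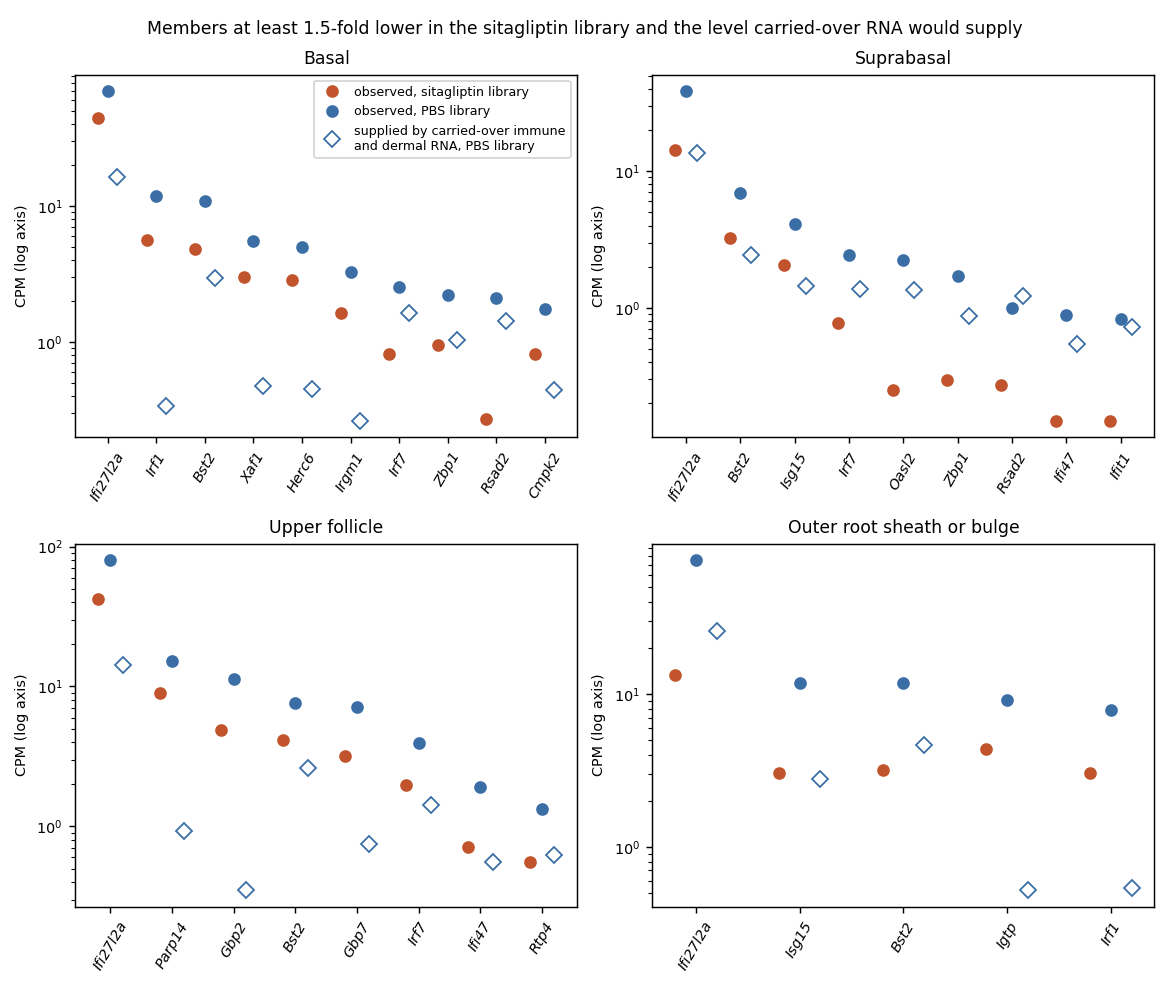
Level in CPM (log axis) of the members called at least 1.5-fold lower in each of 4 keratinocyte classes (panels), in the sitagliptin (orange) and PBS (blue) library, with the level that carried-over immune and dermal RNA would supply in the PBS library (open diamonds). For Rsad2 and Ifit1 of suprabasal cells the diamond lies at or near the PBS level, and for Irf1, Gbp2, Parp14 and Igtp it lies at under 10% of that level.

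Keratinocytes without a single immune-defining UMI give a second view. They were 97.2% (96.2 to 98.0) of sitagliptin and 38.2% (35.4 to 41.0) of PBS basal cells, and 93.2% (92.5 to 93.8) of sitagliptin and 33.7% (31.1 to 36.4) of PBS suprabasal cells. They were 94.7% (93.5 to 95.7) of sitagliptin and 38.4% (35.1 to 41.8) of PBS upper follicle cells, and 97.3% (96.4 to 98.0) of sitagliptin and 43.0% (37.1 to 49.0) of PBS outer sheath cells. Their Ifi27l2a level was 44.9 CPM in sitagliptin and 55.4 CPM in PBS basal cells, 14.0 and 38.0 CPM in suprabasal, 41.0 and 68.5 CPM in upper follicle, and 12.9 and 114 CPM in outer sheath cells. The PBS outer sheath value falls to 54.4 CPM without the 1 cell that holds 38 of its 72 UMIs, against 12.2 CPM without the top sitagliptin cell. Bst2 stood at 4.93 CPM in sitagliptin and 8.37 CPM in PBS basal cells, 3.33 and 6.43 CPM in suprabasal, 4.02 and 10.1 CPM in upper follicle, and 3.18 and 12.6 CPM in outer sheath cells. Its suprabasal and upper follicle differences were past 1.5-fold here, unlike after subtraction. The PBS outer sheath value comes from 119 cells and from a part of the 18 Bst2 UMIs of that class. A barcode without such a UMI can still hold carried-over RNA, as the depth per cell is limited.

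Seen cell by cell, keratinocytes held few members once depth was made equal. Each cell was thinned to 1000 UMIs, since depth differs between the libraries. At this depth the median keratinocyte held 1 or 2 member UMIs, which limits how many members can be found. The median keratinocyte then held 1 member in all 4 classes of both libraries, and the 95th percentile was 2 or 3. Before thinning the medians were 3 in sitagliptin and 5 in PBS basal cells, 2 and 4 in suprabasal, 4 and 6 in upper follicle, and 2 and 3 in outer sheath cells. The 95th percentiles were then 6 and 9, 7 and 10, 9 and 11, and 6 and 7 in the same order. The highest unthinned cells held 18 and 21, 14 and 18, 32 and 25, and 17 and 17 members. The highest thinned cell held 12 members in sitagliptin and 7 in PBS upper follicle cells, and at most 6 elsewhere. PBS macrophages held 6 at the median, 12 at the 95th percentile and 24 at most, PBS fibroblasts 4, 8 and 14, and PBS lymphatic endothelial cells 3, 7 and 12.

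**Figure D4:**
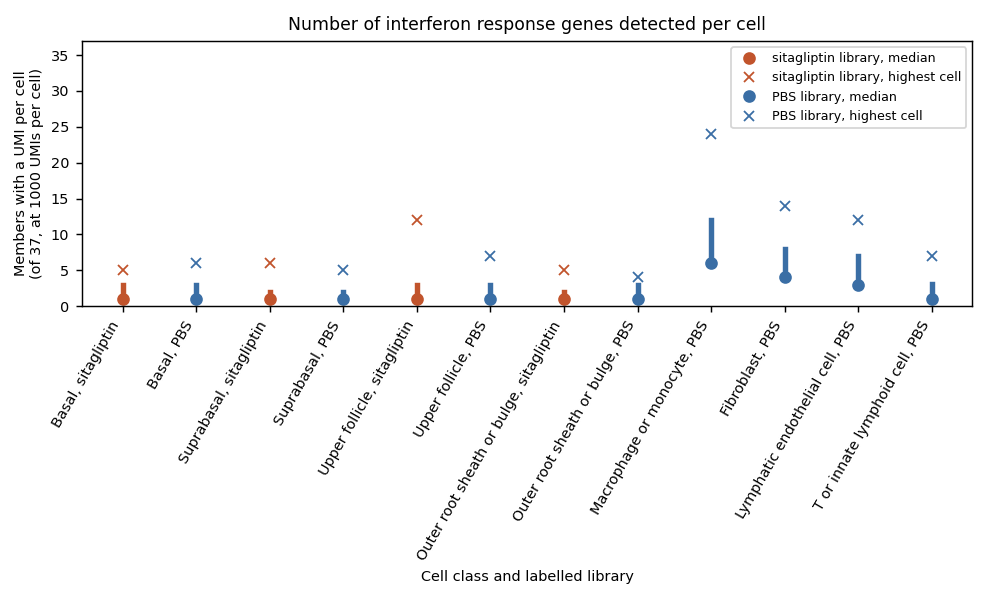
Number of members, of 37, with at least 1 UMI per cell after each cell was thinned to 1000 UMIs, by cell class and library (orange, sitagliptin; blue, PBS). Points are medians, bars run to the 95th percentile and crosses mark the highest cell; all keratinocyte medians are 1, and PBS macrophages reach 24.

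The rest of the pathway was read from 75 further genes, of which 74 were found in the tables (not Mx2). No interferon ligand of the 10 listed reached 3 UMIs in the retained cells of either library. Interferon gamma (Ifng) had 0 UMIs in the sitagliptin and 2 UMIs in the PBS library, both in T- or innate-lymphoid-like cells. Of the other genes with at least 20 UMIs, 7 of 45 were called lower and 0 higher in basal cells, 8 of 50 and 0 in suprabasal, 7 of 46 and 1 in upper follicle, and 9 of 40 and 2 in outer sheath cells, beside 3.14%, 1.92%, 1.82% and 5.28% of all genes lower. With carried-over immune and dermal RNA subtracted, 2, 0, 3 and 8 of these genes were still at least 1.5-fold lower, again without a share over all genes.

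The receptor chain Ifngr1, which binds interferon gamma, ran against the list. It stood at 92.9 CPM in sitagliptin and 56.2 CPM in PBS upper follicle cells (ratio 1.65, 1.495 to 1.83), and at 58.3 and 25.5 CPM in outer sheath cells (2.28, 1.64 to 3.26). B2m, the light chain of MHC class I, was within 1.5-fold but above 1 in all 4 classes, with ratios of 1.38 (1.34 to 1.42), 1.49 (1.46 to 1.52), 1.32 (1.29 to 1.35) and 1.44 (1.33 to 1.56). The chemokine Cxcl9, which draws T cells, had 1.27 CPM in sitagliptin and 6.99 CPM in PBS upper follicle cells, and 0.549 and 13.1 CPM in outer sheath cells. Lgals3bp, a secreted glycoprotein, was lower in all 4 classes, with 1.23 CPM in sitagliptin and 2.47 CPM in PBS basal cells and 3.16 and 9.17 CPM in outer sheath cells. Carried-over RNA would supply 107% of its PBS level in basal and 45.5% in outer sheath cells, against 0.269% for Cxcl9 in outer sheath cells. Slfn2, known from T cells, had 0 UMIs in sitagliptin and 22 in PBS basal cells, and 1 and 25 in upper follicle cells, of which carried-over RNA would supply 107% and 75.7% of the PBS levels.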

How the data were processed

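The authors deposited UMI counts per gene and barcode for 1 library per treatment, made with Cell Ranger 3.1.0 on mm10, per the submitters' processing notes. A barcode was retained if it had 500 genes or more, 1000 UMIs or more and no more than 10% of UMIs from mitochondrial genes. They were clustered with scanpy 1.11.5 (2000 variable genes without the members, 30 principal components, 15 neighbours, Leiden resolution 1, leidenalg 0.10.2, igraph 0.11.9; Python 3.11.15, numpy 2.4.6, scipy 1.17.1, scikit-learn 1.9.0, matplotlib 3.10.9). Clusters were named from 22 marker lists; the minimum score of 0.3 was set after the data were seen. The doublet caller marked 0 of 18380 sitagliptin and 2 of 5932 PBS cells and so did not work; no doublets were removed, and an alternative dropped the 8% of cells scoring highest.

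UMIs were summed by library and class and given as CPM of the class total. Levels have exact Poisson and ratios exact conditional binomial intervals, which cover counting error only. With 1 library per treatment no test was made. The steps were tested on simulated data. The members and lists were chosen with earlier results of these data known. Values in full go to the 10 members highest in PBS keratinocytes, to members at least 1.5-fold from 1, up to 10 each way, and to the 5 highest in immune and dermal classes. Other pathway genes are named from the 5 largest ratios each way per class. There were 19 planned and 3 added alternatives.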

Additional observations from a re-analysis of the deposited data

Results flagged for a closer look

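The direction of Herc6 differed between classes, and its log2 ratio of CPM + 1 was -0.64 in basal cells. In outer sheath cells, where PBS cells had 0 UMIs, the sitagliptin level was 2.09-fold above the limit that a count of 0 allows. This value leaves the counting error of the sitagliptin UMIs aside. The basal call was lost under 10 of 18 alternatives, both RNA subtractions and both other clustering resolutions among them, and the outer sheath call at Leiden resolution 0.5, with a log2 ratio of 0.41. The direction of Ifit1 differed likewise, with a log2 ratio of -0.67 in suprabasal and 0.83 in upper follicle cells. The suprabasal value was -0.088 at the smallest and lost its call under both RNA subtractions and both other clustering resolutions, and carried-over RNA would supply 87.8% of its PBS level. In upper follicle cells 2 cells held 14 and 12 of the 29 sitagliptin UMIs. With 1 library per treatment, the difference between classes was not tested for either gene.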

How the results depend on the processing

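The median log2 ratio of the members was below 0 under every alternative in the 4 classes, between -0.39 and -0.018 over 75 values, and -0.018 was that of suprabasal cells thinned to 1000 UMIs per cell. The counts depended on the processing. The number of members measured can differ by setting, and the share of all genes called was not computed under these settings. The counts below therefore have no background beside them. Of 10 lower members in basal cells, 3 were counted after thinning, 3 at most 5% mitochondrial UMIs, 3 with 5 CPM added, 4 with immune RNA subtracted, 5 without keratinocytes holding an immune-defining UMI, and 4 with immune and dermal RNA subtracted. Of 9 in suprabasal cells the counts were 3 after thinning, 4 at the stricter mitochondrial limit, 1 with 5 CPM added, 5 at Leiden resolution 0.5, and 3 under either subtraction. Of 8 in upper follicle cells they were 2 after thinning, 2 with 5 CPM added, 4 under either subtraction and 5 without cells holding an immune-defining UMI. Of 5 in outer sheath cells they were 2 after thinning and 15 when members with at least 1 UMI were counted.

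Higher members, 0 in basal cells, numbered 1 after thinning, 2 at the stricter mitochondrial limit and 1 under either subtraction. In suprabasal cells, also 0, they numbered 2 after thinning, 1 at the stricter mitochondrial limit and 1 when CPM were averaged over cells. The 1 of upper follicle cells became 0 after thinning, at the stricter mitochondrial limit, with 5 CPM added, at Leiden resolutions 0.5 and 2, and without the 2 cells with most members per class and library. It became 2 with the members kept among the variable genes, 2 with immune RNA subtracted and 3 with both subtracted. The 2 of outer sheath cells became 1 at Leiden resolution 0.5 and 4 without the highest doublet scores. Rsad2 in suprabasal cells turned to a log2 ratio of 0.16 with immune RNA and 0.14 with both subtracted, where the subtracted level exceeds its PBS level.

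The share of the summed level that immune RNA would supply moved, by the median and the highest ratio over the immune-defining genes, to 1.12% and 4.89% in sitagliptin and 6.58% and 9.15% in PBS suprabasal cells. It moved to 0.163% and 1.75% in sitagliptin upper follicle cells and by the highest ratio to 3.33% in PBS ones. By the median it was 0.277% in sitagliptin outer sheath cells, in PBS ones 6.34% and by the highest ratio 12.1%, and by the highest ratio 5.33% in PBS basal cells. Except where a subtraction or a filter acts by its own construction, the cause was not tested. Outer sheath cells gave no value at most 5% mitochondrial UMIs, with 18 PBS cells. The subtraction of both RNAs, the removal of 2 cells and the naming by best class were chosen after seeing the data. No paired analysis was possible because there was 1 library per treatment.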

Other observations

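In the 60 fibroblast-like cells of the sitagliptin library the members summed to 2040 CPM, against 7060 CPM in 498 PBS cells. Ifi27l2a stood at 232 CPM in sitagliptin and 1726 CPM in PBS fibroblasts, Bst2 at 67.8 and 353 CPM, and Isg15 at 45.2 and 225 CPM. Tap1 was at 79.1 CPM in sitagliptin and 76.2 CPM in PBS fibroblasts. The keratinocyte gene Krt14 was at 8923 CPM in sitagliptin and 2060 CPM in PBS fibroblasts and the fibroblast gene Col3a1 at 2560 and 9550 CPM. The part of this keratinocyte RNA in the differences was not tested.

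The 42 macrophage- or monocyte-like cells of the sitagliptin library, fewer than the 50 required for a comparison, had members summing to 5848 CPM, against 9477 CPM in 1045 PBS cells. Ifi27l2a stood at 934 CPM in sitagliptin and 2131 CPM in PBS macrophages, Bst2 at 181 and 377 CPM, and Isg15 at 181 and 220 CPM. The C1qa cluster held 5 of the 42 sitagliptin and 461 of the 1045 PBS cells.

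At least 3 of 9 genes chosen after their values were seen (Ifit1, Ifit2, Ifit3, Isg15, Rsad2, Usp18, Irf7, Oasl2 and Cmpk2) were found in 206 of 1045 PBS macrophages (19.7%, 17.3 to 22.3) and 29 of 498 PBS fibroblasts (5.82%, 3.93 to 8.26) thinned to 1000 UMIs. Each keratinocyte class held at most 1 such cell in either library.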
